A study of Mus musculus with 8 samples.

Results

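The Hox genes of the mouse were followed in whole embryos lacking Arid3b, through the array probes whose gene name in the files is Hoxa, Hoxb, Hoxc or Hoxd with a number. This choice used names and no measured value. Reported here are 48 probes for 37 genes, out of 41174 probes on the array: 10 genes of the Hoxa cluster, 10 of Hoxb, 8 of Hoxc and 9 of Hoxd. Hoxc11 was not analysed here. The samples were 4 pools of Arid3b-null embryos and 4 pools of wild-type embryos, all whole mouse embryos at embryonic day 9.0, with the RNA of 3 to 4 embryos in each pool. Arid3b encodes a DNA-binding protein with an AT-rich interaction domain. The labels call the first group null and do not describe the allele, the strain, the litters or the somite stage. Each pool was read on its own single-colour Agilent array, and the study compared null with wild-type embryos at this stage.

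Hox genes encode homeodomain transcription factors that give cells their position along the head-to-tail axis. The genes lie in 4 clusters, and genes with the same number in different clusters, called paralogues, come from a common ancestor and often act together. Within a cluster, the low-numbered genes are switched on first and reach furthest towards the head, into the hindbrain. The high-numbered genes are switched on later and only near the tail, which is known as colinearity. Retinoic acid and the Cdx proteins are among the signals that switch Hox genes on in the early axis, and Polycomb proteins hold the clusters silent elsewhere.

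Because paralogues share the homeobox, some probes resemble probes for other members. All probes are 60 bases long and their positions are on mm7, the build of the array files. An annotation of that build was not used here, so the exon or UTR that each probe lies in is not given. Aligned without gaps, 7 pairs of probes of different genes shared at least 24 bases at over 60% identity. Of these, 2 pairs among the group 13 genes are shown, with capitals for bases identical to those of the partner probe.
Hoxa13 probe, chr6:52222385-52222444, minus strand, against the Hoxb13 probe: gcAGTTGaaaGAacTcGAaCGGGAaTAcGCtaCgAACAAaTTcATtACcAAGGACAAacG
Hoxb13 probe, chr11:96304167-96304226, plus strand, against the Hoxa13 probe: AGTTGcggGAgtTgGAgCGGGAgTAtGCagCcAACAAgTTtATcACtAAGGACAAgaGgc
Hoxd13 probe, chr2:74513664-74513723, plus strand, against the Hoxa13 probe: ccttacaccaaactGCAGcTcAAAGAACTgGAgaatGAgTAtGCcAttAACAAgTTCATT
The Hoxa13 and Hoxb13 probes were identical at 40 of 58 aligned bases (69.0%). The Hoxa13 and Hoxd13 probes were identical at 33 of 46 (71.7%). The Hoxa9 and Hoxb3 probes, which stand for their genes in the results, were identical at 35 of 46 bases (76.1%), and whether either also bound the other transcript was not tested. The Hoxa13 and Hoxd13 probes shown were above background on 0 arrays, and the Hoxd13 values come from another probe. The probe of Hoxd1, on which the comparison turns, is in none of the 7 pairs, and the first 30 of its 60 bases are shown.
Hoxd1 probe, chr2:74608659-74608718, plus strand: ccacagggtaggtaaggattagaatctgaa

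Levels below are log2 processed signals relative to the 75th percentile of the same array, so that 0 is the brightness that 75 in 100 probes stay under. Probes differ in how they bind, and a level of a gene is compared only with its own level in other pools. Of all probes, 59.9% to 64.1% stood well above background, depending on the array, and no Hox spot was saturated. Arid3b itself averaged 2.02 ± 0.31 in null pools and 3.37 ± 0.08 in wild-type pools (SD, n = 4 each), a difference of -1.35 ± 0.15 (SE) with an adjusted p of 0.00577 in limma, and null pool 4 at 2.48 was the highest null pool. The labels do not say whether its probe lies in the deleted part. Null pools took positions 3 and 4 and wild-type pools positions 1 and 2 on both slides, so the effects of slide position and of genotype cannot be told apart. Each slide held 2 pools of each genotype. Y-linked transcripts, a measure of male embryos in a pool, ranged from 0.479 of the highest pool up to that pool itself in null pools and from 0.023 to 0.836 in wild-type pools, and with that level as a covariate 0 Hox genes were called. That covariate moved the difference of Hoxa4 to -0.50 (unadjusted p 0.0129, adjusted p 0.129), against -0.31 without it, and of Hoxb6 to -0.39 (0.00505 and 0.0920), against -0.21. It moved that of Hoxd1 to 0.27 (adjusted p 0.402), against 0.39.

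Detection at embryonic day 9.0 is given for the brightest probe of each gene. By that probe every Hox gene reported here of groups 1 to 10, and Hoxa11 beyond them, was above background in every pool of both genotypes. Dimmer probes of Hoxc10 and Hoxb8 were above background on 0 and 2 arrays. A dimmer probe of Hoxd3 was above background in 0 null and 3 wild-type pools. Groups 1 to 10 hold 29 of the genes reported. Of the 8 genes of groups 11 to 13, Hoxa11 patterns the sacral axis, the forearm and the kidney. Hoxd13, a gene of the digits and the tail end of the body, was above background in 3 null and 3 wild-type pools. The other 6 were not kept for testing. Hoxa13, Hoxc12, Hoxc13 and Hoxd11 were above background in 0 null and 0 wild-type pools. Hoxb13 and Hoxd12 were each above background in 0 null pools and 1 wild-type pool, which was wild-type pool 3 for both. No fold is given for these 6, and a signal under background does not show that the gene was silent. In whole embryos, fewer expressing cells and less RNA per cell cannot be told apart.

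**Figure D1:**
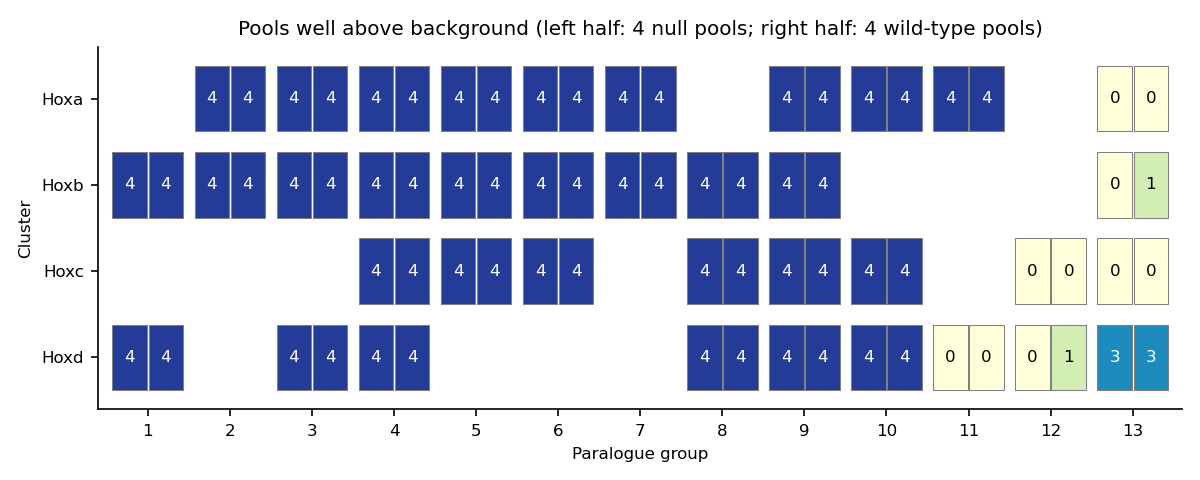
Number of pools in which the brightest probe of each Hox gene was well above background, by cluster (rows) and paralogue group (columns). The 4 null pools are in the left cell and the 4 wild-type pools in the right cell of each gene. All genes shown in groups 1 to 10 stand at 4 and 4, and groups 11 to 13 hold only Hoxa11 at 4 and 4 and Hoxd13 at 3 and 3 among the genes kept.

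Loss of Arid3b went with no called change in any of the 31 Hox genes tested and reported here. By limma with Benjamini-Hochberg adjustment over all genes, 0 of 31 passed an adjusted p of 0.05, against 4.20% of the 17099 genes tested, 2.85% higher and 1.35% lower in null. Without adjustment, 2 of 31 had a p under 0.05 (6.45%), against 20.7% of all genes. These genes, Hoxd1 and Hoxb9, were also the 2 of 31 (6.45%) whose null and wild-type pools did not overlap, against 16.1% of all genes. Both were higher in null, against 8.08% of all genes, and 0 of 31 were lower in null without overlap, against 8.06%. The replicate number as a block called 1 of 31 (Hoxd1), against 13.7% of all genes. The slide as a block called 0 of 31, against 8.01%, and quantile normalization called 0 of 31, against 4.14%. Mean levels were higher in null for 14 genes and lower for 17, with a median difference of -0.04 against -0.01 over all genes. The median size of the difference, whatever its sign, was 0.114 for Hox genes and 0.148 for all genes.

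The intervals limit how large a change could have gone unseen. The 95% interval of the difference stayed within 2-fold in either direction for 28 of 31 Hox genes and within 1.5-fold for 20 of 31. The 3 whose interval reached past 2-fold were Hoxa11, Hoxc10 and Hoxd13, all of groups 10 to 13. The signs of small differences depended on how arrays were brought to a common scale. With each array shifted to its median, 6 Hox genes were higher in null and 25 lower, and with no shift 7 and 24, while the median of all genes moved to -0.10 and -0.08. Directions of genes near 0 are therefore not read as results.

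**Figure D2:**
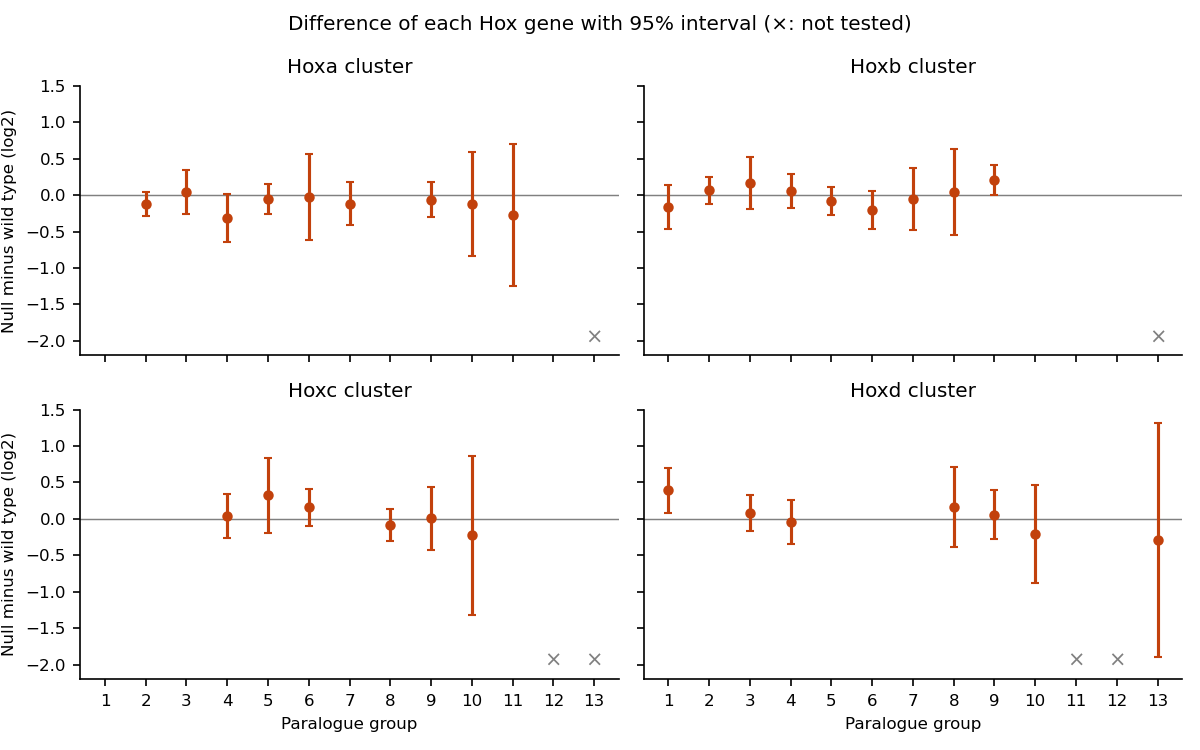
Null minus wild-type difference (log2) of each tested Hox gene by paralogue group, a panel per cluster, with bars for the 95% interval (4 pools per group) and crosses for the 6 genes not tested. Most points lie near 0, Hoxd1 lies above it with an interval of 0.08 to 0.70, and intervals widen in groups 10 to 13.

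In limma without a block, Hoxd1 had the smallest adjusted p of the Hox genes reported. It belongs to paralogue group 1, the lowest-numbered group. Hoxd1, known in mice for its part in pain-sensing neurons, read -0.97, -0.66, -0.77 and -0.68 in null pools, against -1.53, -1.09, -1.04 and -0.99 in wild-type pools. The groups did not overlap, and wild-type pool 1 was the lowest of the 8. The difference was 0.39 ± 0.14 (SE), 1.31-fold, with an adjusted p of 0.151 in limma, 0.0900 with the slide as a block and 0.0303 with the replicate block. With the slide as a block Hoxa4 had a smaller adjusted p, 0.0833. With the Y-linked level as a covariate Hoxb6, Hoxa4, Hoxb7 (0.307), Hoxb3 (0.398) and Hoxa2 (0.400) had smaller ones than Hoxd1 (0.402). Hoxb9 had a smaller one with quantile normalization (0.128) and in the deposited value table (0.140). The difference of Hoxd1 was 0.49 within slide 1 and 0.29 within slide 2, and 0.27 without wild-type pool 1. Hoxb1, which sets the identity of the fourth hindbrain segment, did not differ in the same way. It read -0.28, -0.80, -0.72 and -0.64 in null pools, against -0.36, -0.43, -0.35 and -0.65 in wild-type pools, which overlapped. Its difference was -0.16 ± 0.13 (SE), with a 95% interval of -0.46 to 0.14 and an adjusted p of 0.547. The Hoxb1 probe is printed 10 times on each array, and its spots had an SD of 0.030 to 0.091 within an array, below the SD of 0.23 between null pools and of 0.14 between wild-type pools.

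**Figure D3:**
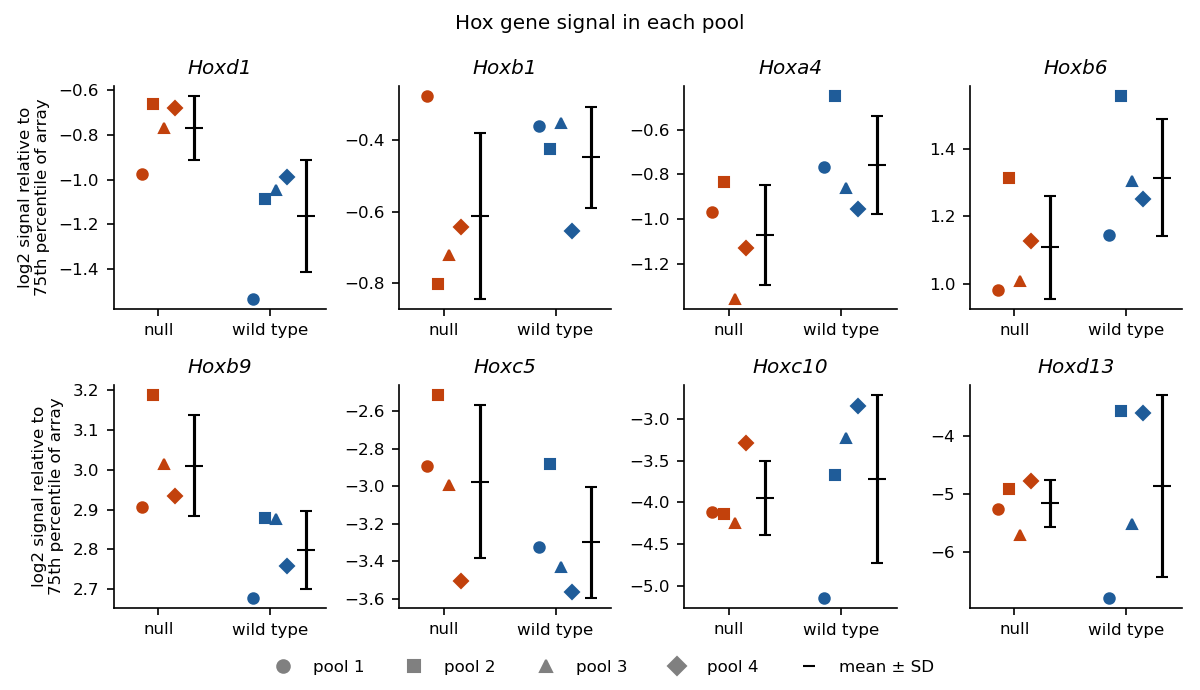
Level of 8 Hox genes in each pool (log2 signal relative to the array's 75th percentile), null pools left of wild-type pools, with a symbol per pool number and the mean ± SD beside them (n = 4 each). Null pools lie above wild-type pools without overlap for Hoxd1 and Hoxb9, and the groups overlap in the other panels.

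Groups 2 to 4, with group 1, make up the anterior class, whose genes pattern the hindbrain, the pharyngeal arches and the neck. Of its 11 genes reported 11 were tested and 0 called, with a median difference of 0.05 and a range of -0.31 to 0.39. Hoxa2 and Hoxb2, which pattern the arches and the hindbrain, differed by -0.12 ± 0.07 and 0.07 ± 0.08 (SE). Hoxa2 was lower in null in all 4 same-numbered pairs, at 0.32, 0.25, 0.31 and 0.41 in null pools and 0.49, 0.50, 0.36 and 0.42 in wild-type pools, with an adjusted p of 0.401. The group 3 genes, of the thymus, the parathyroid and the neck vertebrae, differed by 0.05 for Hoxa3, 0.17 for Hoxb3 and 0.08 for Hoxd3, with SEs of 0.11 to 0.15. Hoxa3 had the highest difference of the Hoxa cluster, and read -2.50, -2.38, -2.12 and -2.07 in null pools, against -2.51, -2.38, -2.27 and -2.10 in wild-type pools, which overlapped almost fully.

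Hoxa4, a gene of the neck vertebrae, had the lowest difference of all 31 genes. It read -0.97, -0.83, -1.35 and -1.13 in null pools, against -0.77, -0.45, -0.86 and -0.95 in wild-type pools. It was lower in null in all 4 pairs, although the groups overlapped. The difference was -0.31 ± 0.15 (SE), with an adjusted p of 0.276 in limma, 0.0833 with the slide as a block and 0.0515 with the replicate block. A second Hoxa4 probe gave -0.42 ± 0.13 (SE) with an adjusted p of 0.127 when every kept probe was tested. The other group 4 genes, Hoxb4, Hoxc4 and Hoxd4, differed by 0.06, 0.04 and -0.04, each by less than its SE.

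Groups 5 to 8 form the central class, which patterns the thorax, the shoulder and the brachial spinal cord. Of its 11 genes 11 were tested and 0 called, with a median difference of -0.05. The class held the widest differences in Hoxc5 and Hoxb6. Hoxc5 read -2.89, -2.51, -2.99 and -3.51 in null pools, against -3.32, -2.88, -3.43 and -3.56 in wild-type pools, and was higher in null in all 4 pairs. Its difference was 0.32 ± 0.22 (SE), with an adjusted p of 0.481 in limma and 0.0608 with the replicate block. Hoxb6 read 0.98, 1.31, 1.01 and 1.13 in null pools, against 1.15, 1.56, 1.30 and 1.25 in wild-type pools, and was lower in null in all 4 pairs. Its difference was -0.21 ± 0.11 (SE), with an adjusted p of 0.365 in limma and 0.0628 with the replicate block. In both genes the null and wild-type pools overlapped.

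The other central genes differed by 0.16 or less in either direction. Hoxa5, which acts in the neck and the lung, differed by -0.05 ± 0.09, and Hoxb5, which sets the position of the shoulder, by -0.08 ± 0.08 (SE). Hoxb5 was lower in null in all 4 pairs, though pairs 1 and 3 differed by only -0.007 and -0.002. Hoxc6 differed by 0.16 ± 0.11 and was higher in null in all 4 pairs. Hoxa7 and Hoxb7, of the thoracic axis, differed by -0.11 ± 0.13 and -0.05 ± 0.18. Hoxc8, which specifies motor neurons of the forelimb, differed by -0.09 ± 0.10, with the 4 wild-type pools within an SD of 0.05. Hoxa6 differed by -0.03 ± 0.26 and Hoxd8 by 0.16 ± 0.24. Hoxb8 was the least even between null pools, at -3.09, -2.94, -1.99 and -2.29 in null pools and -2.97, -2.41, -2.64 and -2.44 in wild-type pools. Its difference was -0.32 within slide 1 and 0.40 within slide 2.

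Groups 9 to 13, the posterior class, serve the trunk behind the forelimb, the loins, the tail and the limb ends. Of its 15 genes 9 were tested and 0 called, with a median difference of -0.12. Its sign differed between slides, at 0.15 in the pools of slide 1 and -0.40 in those of slide 2, and it ran from -0.42 without wild-type pool 1 to 0.06 without wild-type pool 4. Hoxb9, which with its paralogues shapes the rib cage, had the highest difference of the class. It read 2.91, 3.19, 3.01 and 2.93 in null pools, against 2.68, 2.88, 2.88 and 2.76 in wild-type pools. The groups did not overlap, and the difference was 0.21 ± 0.09 (SE), 1.16-fold, with an unadjusted p of 0.0450 and an adjusted p of 0.229, or 0.0589 with the replicate block. A second Hoxb9 probe gave 0.17 ± 0.16 (SE), and there the groups overlapped. The other group 9 genes differed by less than their SE, at -0.06 for Hoxa9, 0.01 for Hoxc9 and 0.06 for Hoxd9.

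By cluster, the median differences were -0.11 over the 9 tested genes of Hoxa, 0.04 over 9 of Hoxb, 0.03 over 6 of Hoxc and 0.06 over 7 of Hoxd. Of the tested Hoxa genes 8 of 9 had a lower mean in null, and of the others 5 of 9 in Hoxb, 4 of 6 in Hoxc and 4 of 7 in Hoxd had a higher one. Over all genes 8764 of 17099 had a lower mean in null. As the signs of small differences depended on scaling, these counts are given as a description only. Without wild-type pool 1 the Hoxb median was -0.08. The genes at the 2 ends of the difference were from different clusters. By paralogue group, all 3 tested genes of group 3 had a higher mean in null, both of group 7 and all 3 of group 10 a lower one, and groups 1, 2, 4, 5, 6, 8 and 9 held genes on both sides of 0. Hoxd1 read higher in null while Hoxb1 read lower, and Hoxa4 read lower while Hoxb4 and Hoxc4 lay near 0.

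The widest variation among Hox genes lay between pools of the same genotype, in groups 10 to 13, and chiefly between wild-type pools. Hoxd13, the most tailward gene kept, read -5.26, -4.91, -5.69 and -4.77 in null pools, against -6.78, -3.57, -5.51 and -3.60 in wild-type pools. Wild-type pools 2 and 4 were the highest of the 8 and wild-type pool 1 the lowest. The SD was 0.41 between null pools and 1.57 between wild-type pools, and the difference of -0.29 ± 0.70 (SE) had an adjusted p of 0.879. Hoxd13 was under background in 1 pool of each genotype, so its lowest values are near the limit of the array. Among genes within 0.5 of its mean level, 0.452% had a wild-type SD as large.

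Hoxa11 likewise was highest in wild-type pools 2 and 4 and lowest in wild-type pool 1. It read -3.17, -3.41, -3.91 and -3.33 in null pools, against -4.25, -2.44, -3.66 and -2.38 in wild-type pools, and it was above background on all 8 arrays. Its SD was 0.32 between null pools and 0.92 between wild-type pools, and 1.17% of genes of like level had a wild-type SD as large. Hoxc10, which with its paralogues keeps ribs off the lumbar vertebrae, read -4.12, -4.14, -4.25 and -3.29 in null pools, against -5.14, -3.67, -3.23 and -2.85 in wild-type pools. Its wild-type SD of 1.0 was reached by 1.79% of genes of like level, and its difference was -0.23 ± 0.47 (SE), with an adjusted p of 0.856. Hoxa10 and Hoxd10 had wild-type SDs of 0.61 and 0.55, reached by 7.39% and 10.9% of genes of like level, and null SDs of 0.36 and 0.38. The 5 tested genes of groups 10 to 13 all had lower means in null, with a median difference of -0.23, but each difference was smaller than its SE. All 5 were higher in null within slide 1, by 0.06 to 0.28, and lower within slide 2, at -0.73 to -0.40. With a pool left out, the lowest difference came without wild-type pool 1, at -0.63 for Hoxa11, -0.70 for Hoxc10 and -0.93 for Hoxd13. The highest came without wild-type pool 4 for Hoxa11 (-0.01) and Hoxc10 (0.06) and without wild-type pool 2 for Hoxd13 (0.14).

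Over the posterior class the median deviations from the wild-type mean were -0.15, -0.16, -0.39 and 0.09 for null pools 1 to 4. Null pool 1 was the lowest null pool for 13 of 31 Hox genes, against 32.9% of all genes. Wild-type pool 1 was the lowest wild-type pool for 21 of 31 Hox genes, and for 15 of 20 in groups 5 to 13, against 28.1% of all genes. Its median deviation from the wild-type mean was -0.17 over the anterior class, -0.19 over the central class and -0.74 over the posterior class. Wild-type pool 4, by contrast, stood at 0.10, 0.04 and 0.38 for the same classes. By paralogue group, wild-type pool 1 showed no steady trend over groups 1 to 9. It lay between -0.36 (group 8) and -0.03 (group 2) there, and at -1.07 over groups 10 to 13. The median SD of posterior genes was 0.322 between null pools and 0.548 between wild-type pools, and over all genes, whatever their level, it was 0.193 and 0.146. For the 5 tested genes of groups 10 to 13, 33.4% to 54.5% of genes of like level had a null SD as large. With so few pools, and genes that share them, these SDs are given as a description with no test.

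**Figure D4:**
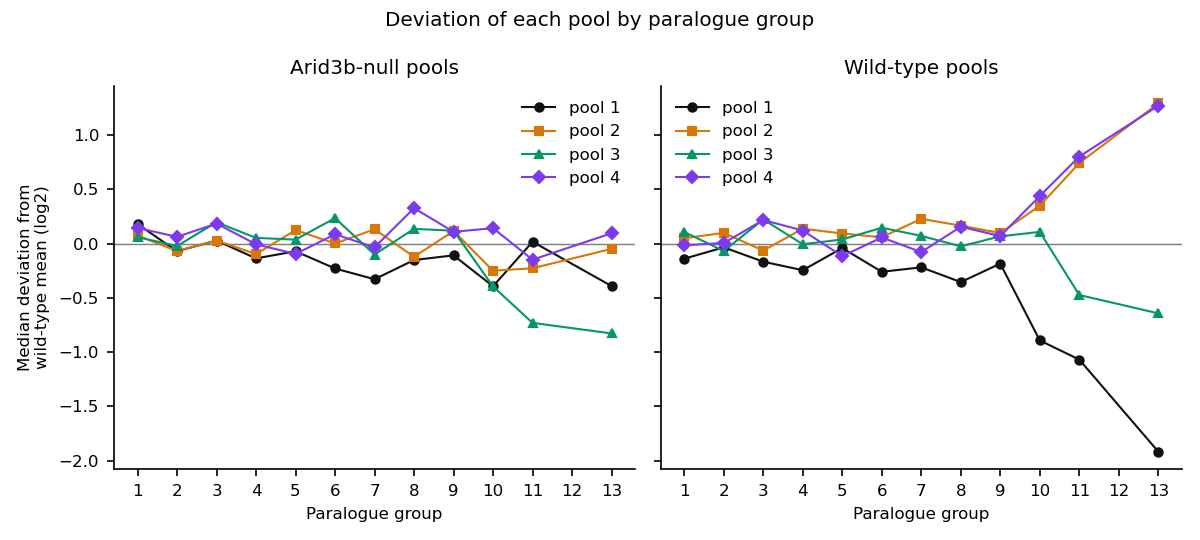
Median deviation of each pool from the wild-type mean (log2) over the tested genes of each paralogue group, with null pools in the left panel and wild-type pools in the right panel. Group 12 has no tested gene and groups 11 and 13 have 1 each. Wild-type pools spread apart from group 10 on, with pool 1 at the bottom and pools 2 and 4 at the top, more than null pools do.

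Wild-type pool 1 was the lowest wild-type pool for 8 of 12 tail bud genes and 4 of 5 Caudal and ParaHox genes, against 28.1% of all genes. Those 4 were the Caudal genes Cdx1 and Cdx2 and the ParaHox genes Gsx1 and Gsx2, so they are not all tail-end genes. Wild-type pool 1 was also lowest for 6 of 6 yolk sac markers and for 3 of 17 genes of the retinoic acid pathway. The exceptions among tail bud genes were Fgf8, Wnt5a, Gdf11 and Lin28a, and among the Caudal genes Cdx4, which was lowest in wild-type pool 2. Cdx2, a Caudal-type activator of central Hox genes, read 0.07, 0.79, 0.75 and 1.19 in null pools, against -0.00, 0.98, 0.43 and 1.13 in wild-type pools. Pool 1 was the lowest of each genotype, and the groups overlapped widely. Evx1, a homeobox gene beside Hoxa13 that is expressed in the tail bud, read -2.84, -3.08, -2.63 and -2.01 in null pools, against -3.03, -2.68, -2.44 and -2.11 in wild-type pools, the lowest of them pool 1. The labels give embryonic day 9.0 for every pool and no finer stage, and the part of stage in this spread was not tested.

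Of 11 Hox genes with several probes, 6 had more than 1 probe kept. For Hoxa3, Hoxa4 and Hoxb9 the probes had the same sign. For Hoxd9 they differed in sign at -0.04 ± 0.14 and 0.06 ± 0.15 (SE), both smaller than the SE. Hoxb6 gave -0.21 ± 0.12 with the brighter probe and 0.02 ± 0.11 with the other. The second Hoxb2 probe, at chr11:96459585-96459644, lies on the minus strand while the other Hoxb probes lie on the plus strand, so it reads a transcript in the antisense direction. It read -3.89, -4.27, -4.13 and -4.42 in null pools, against -4.49, -4.41, -4.56 and -4.50 in wild-type pools, and was higher in null in all 4 pairs. Its difference was 0.31 ± 0.12 (SE) with an adjusted p of 0.177 when every kept probe was tested, while the sense Hoxb2 probe gave 0.07 ± 0.08. The antisense value is therefore no measure of Hoxb2.

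Lists of other genes were set beside the Hox genes. They held genes that act with or upstream of Hox genes, other homeobox genes, and non-Hox genes chosen only for lying in or next to the clusters. Of 74 list members tested, 2 were called in limma (2.70%), both from the retinoic acid pathway, against 4.20% of all genes. The TALE cofactors, which bind DNA together with Hox proteins, had 0 of 9 called and a median difference of -0.02. The smallest p among them was that of Meis3, at -0.16 ± 0.14 (SE) and an adjusted p of 0.562, and Pbx2, Meis1 and Meis2 differed by -0.02, 0.01 and 0.06. Caudal and ParaHox genes had 0 of 5 called, with a median of 0.02, and Pdx1 was not kept. Gsx2, a ParaHox gene of the brain, was lowest in that list at -1.36 ± 0.41 (SE), with an adjusted p of 0.106, and it was above background in 1 null pool and 4 wild-type pools. Cdx1 was highest at 0.56 ± 0.26, with an adjusted p of 0.271.

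In the retinoic acid pathway, 2 of 17 members (11.8%) were called higher in null, against 2.85% of all genes. Called lower were 0 of 17, against 1.35% of all genes, and the median difference was 0.08. Rarb, a receptor gene that retinoic acid itself induces, read 2.05, 2.07, 2.0 and 2.04 in null pools, against 1.63, 1.66, 1.63 and 1.73 in wild-type pools. All null pools lay above all wild-type pools, and the difference was 0.38 ± 0.06 (SE), 1.30-fold, with an adjusted p of 0.0229. Dhrs3, an enzyme gene that turns retinaldehyde back into retinol, read 0.71, 0.73, 0.43 and 0.25 in null pools, against -0.14, 0.11, -0.15 and -0.28 in wild-type pools. Its difference was 0.64 ± 0.13 (SE), 1.56-fold, with an adjusted p of 0.0414. The receptor gene Rara differed by 0.32 ± 0.07 (adjusted p 0.0561), the receptor gene Rxrg by 0.28 ± 0.09 (0.113), and Cyp26a1, whose enzyme breaks down retinoic acid, by 0.29 ± 0.10 (0.138). With the replicate block, which calls 13.7% of all genes, Rara and Rxrg were called too. With normexp background correction the difference of Rara was -0.05 (adjusted p 0.996). Aldh1a2, the main enzyme that makes retinoic acid in the trunk, differed by 0.09 ± 0.07, and Rxra by -0.22 ± 0.09 (unadjusted p 0.0487, adjusted p 0.239), with all null pools below all wild-type pools. The calls of Rarb and Dhrs3 were lost when most single pools were left out, with adjusted p-values of 0.036 to 0.084 for Rarb and 0.031 to 0.120 for Dhrs3, and lost with arrays shifted to their medians. Rarb kept its call without null pool 2 or 4, and Dhrs3 without null pool 4. Both calls were also lost with no shift between arrays, with normexp, with no filter on dim probes and with the Y-linked level as a covariate.

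**Figure D5:**
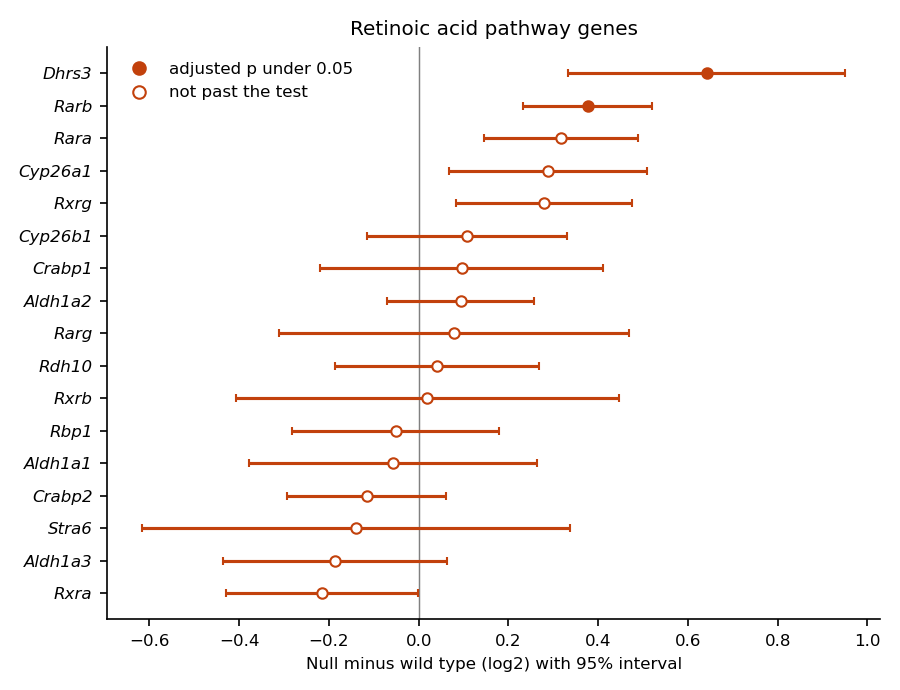
Null minus wild-type difference (log2) with the 95% interval for the 17 tested genes of the retinoic acid list (4 pools per group), filled where the adjusted p was under 0.05. Dhrs3 and Rarb are filled, Rara, Cyp26a1 and Rxrg have intervals above 0 without passing the test, Rxra has an interval wholly below 0 without passing it, and the other intervals include 0.

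Of the other lists, none had a member called in limma. The hindbrain regulators had 0 of 3 called and a median of 0.08. The smallest p among them was that of Egr2, which marks the third and the fifth hindbrain segments, at 0.13 ± 0.16 (SE) and an adjusted p of 0.735. The tail bud list had 0 of 12 called and a median of -0.00, with Fgf17 at -0.30 ± 0.13 (adjusted p 0.239). Polycomb and trithorax genes had 0 of 18 called and a median of -0.08. Of them 2 of 18 had a higher mean in null, against 8335 of 17099 over all genes. As signs of small differences depended on scaling, this count is a description only. Cbx8, a Polycomb chromobox gene, differed by -0.29 ± 0.08 (SE), with an adjusted p of 0.0793. With the replicate block, the Polycomb gene Cbx2 (adjusted p 0.0305) and Men1 (0.0401), whose product works with the Hox activator Kmt2a, were called lower. These are 2 of 18 (11.1%), against 13.7% of all genes called by that fit. A list of other homeobox genes held Evx1 and Evx2, beside the Hoxa and Hoxd clusters, and Mnx1 and Gbx2, on other chromosomes. It had 0 of 4 called and a median of -0.10, with Gbx2 at -0.12 ± 0.10. The non-Hox genes inside or next to the clusters had 0 of 7 called and a median of -0.01, with Lnpk, on the Hoxd13 side of its cluster, at -0.25 ± 0.11 (adjusted p 0.255).

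Of 42 tested markers of tissues that make up the embryo, 4 were called (9.52%), against 4.20% of all genes, each from a different tissue. The summed linear signal of 4 heart markers, in units of each array's 75th percentile, was 114 to 134 in null pools and 98.0 to 107 in wild-type pools, with 0 called. That of 5 forebrain markers was 8.44 to 11.4 in null pools and 12.1 to 12.9 in wild-type pools. Of these, Lhx2 was called lower (-0.44, adjusted p 0.0304), while 1 of 5, Otx2, had a higher mean in null (0.07). The summed signal of 4 spinal cord markers was 3.62 to 6.63 in null pools and 7.12 to 7.41 in wild-type pools. The lowest null pool had no usable Nkx6-1 spot. Of these, 1 of 4, the motor neuron progenitor gene Olig2, was called lower (-0.69, adjusted p 0.0153). Neural crest markers had 0 of 3 called, somite markers 0 of 5 and lateral plate and limb bud markers 0 of 4. Yolk sac markers had 0 of 6 called, with summed signals of 11.3 to 19.8 in null pools and 11.6 to 21.2 in wild-type pools. Of the trophoblast markers 3 of 5 were kept, with sums of 0.480 to 0.689 in null pools and 0.463 to 0.519 in wild-type pools and 0 called. Of the 4 gut markers Sox17 was called higher (0.32, adjusted p 0.0431). Foxa2 (-0.14) and Shh (-0.23) of that list had lower means, Cdx2 (0.07) a higher one, and the list median was -0.04. Of the 4 primitive blood markers Klf1 was called lower (-0.88, adjusted p 0.0377). The part of tissue makeup in the Hox and retinoic acid values was not tested.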

How the data were processed

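Per the file headers, the deposited processed intensity of a spot is its Cy3 brightness from Feature Extraction 9.5.3.1, background-subtracted and detrended within the array, with nothing scaled between arrays. The deposited value table holds log2 values made in a way not stated in the labels or headers. Control and outlier-flagged spots were dropped, spots of a probe were averaged as log2, and arrays were aligned by subtracting the 75th percentile. Of 41174 probes 25555 were kept, those standing well above background on 4 or more of the 8 arrays. The brightest kept probe stood for a gene, with names updated from RefSeq for 22951 probes by accession, 6659 by symbol and 3109 by older name. Groups were compared over 17099 genes with limma 3.58.1 in R 4.3.3 (lmFit, eBayes, two-sided, Benjamini-Hochberg), with no covariate, and the steps were tested on simulated data. The interval and SE are those of this fit.

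Values per pool are given for Hox genes with the smallest p or an extreme difference in their cluster or class, and for others chosen after their values were seen. List genes named by rule are those called, up to 4 with the smallest adjusted p, or the one with the smallest p. Some genes and sequences that the rule or the lists take are not reported here, and these genes are left out of every count of members. Members and lists were chosen with earlier results of these data known. The labels do not say whether pools came from separate litters, so p-values reflect only how these pools vary. Pools with the same number deviated together over all genes (correlations of 0.557, 0.635, 0.523 and 0.426). The numbers were therefore taken to pair them in the replicate block and in the counts of pairs, while the fit without a block used no pairing. The numbers are nested in the slides, and these correlations cannot tell a shared number from a shared slide. Over the 31 Hox genes alone the correlations were 0.06, 0.48, 0.39 and 0.57. The share of all genes with the same sign in all 4 pairs is not given here, so the counts of pairs are a description only. Alternatives also covered scaling, normexp with an offset of 50, filters, the probe chosen, the Y-linked level, the value table and each pool left out. The number of arrays limits the precision.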

Additional observations from a re-analysis of the deposited data

Results flagged for a closer look

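A pool far from the other 3 of its group was looked for in 62 groups (31 tested Hox genes in null and in wild-type pools), and 4 were found. Chance flags about 1 in 20 groups, or 3.1 of 62, so the number found is near that. In null pool 4, Hoxc10 read -3.29, against -4.12, -4.14 and -4.25 in the other null pools. In wild-type pools the far pool was pool 1 all 3 times, as the lowest. Hoxb5 read 0.29 there, against 0.48, 0.46 and 0.47 in the other wild-type pools. Hoxc9 read 1.01 there, against 1.55, 1.55 and 1.63. Hoxd8 read -2.22 there, against -1.62, -1.67 and -1.63. These genes belong to groups 5, 9 and 8, and the same pool was lowest for 15 of 20 genes in groups 5 to 13.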

How the results depend on the processing

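The count of Hox genes called was 0 in the fit without a block, where 2 had an unadjusted p under 0.05, and 1 with the replicate block (Hoxd1). It was 0 under the other alternatives, including every pool left out in turn (0 to 0). Over all genes normexp called 0, with 740 at an unadjusted p under 0.05, and the fit within each slide called 0. The count of called list genes, 2 in limma without a block, was 4 with the slide as a block and 6 with the replicate block. It was 0 with the median shift, with no shift, with normexp, with no filter on dim probes, with the Y-linked level as a covariate, and within slide 1 or slide 2, and 0 to 2 with a pool left out. The cause of these changes was not tested. The median difference of the anterior class was -0.091 with normexp, against 0.046, and that of the Hoxb cluster was -0.079 to 0.080 with a pool left out, against 0.039. That of the posterior class moved furthest of the classes, to between -0.42 and 0.064 with a pool left out, 0.15 within slide 1 and -0.40 within slide 2, against -0.12. All genes called numbered 718, against 2343 with the replicate block, 1370 with the slide as a block, 462 in the deposited value table, 304 with the Y-linked level, 204 with the median shift, 164 with no filter, 157 with no shift, and 93 to 626 with a pool left out. Rarb, Dhrs3 and Hoxd1 kept their sign under every alternative that took the brightest probe of a gene. So did Hoxa2, Hoxa4, Hoxa7, Hoxb1, Hoxb5, Hoxb6, Hoxb9, Hoxc5, Hoxc6 and Hoxc8, none of them called, so a kept sign does not set Hoxd1 apart. The second kept probe of Hoxb6, at 0.02, had the other sign. Rara, called with the replicate block, was -0.054 with normexp, against 0.32. Depth does not apply to arrays, and signal over background limits groups 11 to 13.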
